A study of Mus musculus with 2 samples.

Results

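Annexins are calcium-dependent proteins that bind the inner face of membranes, and 6 of them, Anxa1, Anxa2, Anxa3, Anxa5, Anxa6 and Anxa11, were followed here across the cell types of mouse blood. They were taken by gene symbol from the 12 annexin genes among the 32285 genes of the counts. Single-cell RNA-seq of the 3′ end of transcripts was available for 2 libraries, 1 from wild-type (WT) mice and 1 from APP/PS1 mice, which carry human transgenes for mutant amyloid precursor protein and presenilin and serve as a model of Alzheimer's disease. Cells of 3 mice aged 7 months were pooled for each library. The methods name the APP/PS1 mice as female and list C57BL/6J mice beside them, and the transgene promoter is not given in the sources used here. Blood was depleted of other cells with a negative-selection kit for neutrophils, so every level below is that of cells left after this step. With 1 library per genotype there was no test, and every interval given is an exact 95% interval that covers counting error only. A difference between the genotypes can therefore not be told apart from a difference between 2 pools, 2 preparations or 2 sequencing libraries.

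All annexins share a core of repeats that binds calcium and acidic phospholipids, and they differ in their short N-terminal tails. Anxa1 is known as a glucocorticoid-induced protein that leaves the neutrophil and acts through formyl peptide receptors to limit further neutrophil recruitment. Anxa2 pairs with the S100 protein S100a10 and assembles plasminogen activation at the cell surface, Anxa5 binds exposed phosphatidylserine, Anxa3 is abundant in neutrophil granule preparations, Anxa6 has a longer core than the rest and takes part in membrane repair and cholesterol traffic, and Anxa11 links RNA granules to lysosomes.

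There were 17123 cells from WT and 17645 from APP/PS1 mice, of which 14564 and 15208 passed the limits on genes, UMIs (unique molecular identifiers, each 1 counted transcript) and mitochondrial content. Median depth before the limits was 3345 UMIs per cell in WT and 3115 in APP/PS1, and 83 cell barcodes occurred in both libraries. Clusters were made without the annexins and named by markers as neutrophil-like (7484 WT and 9402 APP/PS1 cells), immature neutrophil-like (89 and 177, led by the granule genes Camp, Ngp and Ltf), classical monocyte-like (2418 and 1713), nonclassical monocyte-like (2954 and 1892), NK-like (425 and 764), T-like (428 and 542), B-like (303 and 307), basophil-like (72 and 43), erythroid-like (259 and 140), plasma-like (116 and 212) and platelet-like (16 and 16). They are called by these names without the suffix below, apart from the plasma-like cells, in which S100a8 and S100a9 stood at 55.6% of their neutrophil level in WT and 38.3% in APP/PS1. Of the erythroid cells, 49.1% were called doublets, and of the plasma-like cells 26.5%. Although both libraries carry the label neutrophil, cells outside the neutrophil clusters thus made up a large part of each.

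The 6 genes lie on 6 chromosomes of mm10: Anxa1 on chromosome 19 (20373428 to 20390944, minus strand), Anxa2 on 9 (69453620 to 69491795, plus), Anxa3 on 5 (96793339 to 96845966, plus), Anxa5 on 3 (36448923 to 36475894, minus), Anxa6 on 11 (54979108 to 55033445, minus) and Anxa11 on 14 (25842156 to 25886804, plus), and all are protein-coding in GENCODE M21. RefSeq promoters of build GRCm38.p6, from 250 bases before to 50 bases after the start, were at hand for 4 members. Those of Anxa1 (chr19:20390622-20390921, minus strand), Anxa2 (chr9:69453433-69453732, plus) and Anxa11 (chr14:25841905-25842204, plus) are shown because these 3 gave the most annexin UMIs in neutrophils. Capitals mark matches, on either strand, to TATAAA (the TATA box), GGGCGG (the GC box), GAGGAA (the core bound by the myeloid factor PU.1) and AGAACA (a glucocorticoid receptor half-site).

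Anxa1: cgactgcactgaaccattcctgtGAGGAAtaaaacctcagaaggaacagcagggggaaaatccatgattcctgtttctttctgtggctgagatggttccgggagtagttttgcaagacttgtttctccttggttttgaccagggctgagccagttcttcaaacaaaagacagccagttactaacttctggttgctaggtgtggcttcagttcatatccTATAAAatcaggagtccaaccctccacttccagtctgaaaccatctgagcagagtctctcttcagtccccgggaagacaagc

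Anxa2: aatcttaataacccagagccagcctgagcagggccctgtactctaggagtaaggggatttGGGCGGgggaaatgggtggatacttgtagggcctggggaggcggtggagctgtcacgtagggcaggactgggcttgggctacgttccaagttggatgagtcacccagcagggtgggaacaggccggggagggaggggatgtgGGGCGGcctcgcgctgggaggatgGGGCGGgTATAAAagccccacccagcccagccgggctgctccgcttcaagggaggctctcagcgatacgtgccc

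Anxa11: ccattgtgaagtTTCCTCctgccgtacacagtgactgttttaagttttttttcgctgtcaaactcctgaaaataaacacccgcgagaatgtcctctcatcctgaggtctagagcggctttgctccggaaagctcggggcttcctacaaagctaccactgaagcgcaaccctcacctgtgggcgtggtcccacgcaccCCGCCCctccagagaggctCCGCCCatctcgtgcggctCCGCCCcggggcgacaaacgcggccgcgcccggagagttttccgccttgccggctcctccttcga

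The Anxa1 window held TATAAA 32 bases before the start and GAGGAA 227 bases before it, with no GGGCGG, and its GC content was 47.3%. The Anxa2 window had a GC content of 63.7%, with 3 GC boxes and a TATAAA that began 17 bases before the start. The Anxa11 window had no TATAAA but 3 GC boxes and 1 GAGGAA, the last 238 bases before the start. The Anxa5 window held none of the 4 motifs. Over all 32851 promoters of the same length, 13.6% held TATAAA, 35.7% GGGCGG, 28.3% GAGGAA and 19.0% AGAACA, which none of the 4 annexin windows held. These matches describe letters only.

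Each annexin had its own order across the leukocytes (the plot of levels by cell type). Anxa1 was highest in immature neutrophils, Anxa2 in mature neutrophils, Anxa5 in classical monocytes and Anxa6 in T and NK cells, in both libraries. Levels are given as CPM, the UMIs of a gene over all UMIs summed in that cell type and library, scaled to the usual common total of CPM values. UMIs from the 3′ end count molecules and are not scaled by gene length, so levels are compared between cell types for 1 gene at a time.

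**Figure D1:**
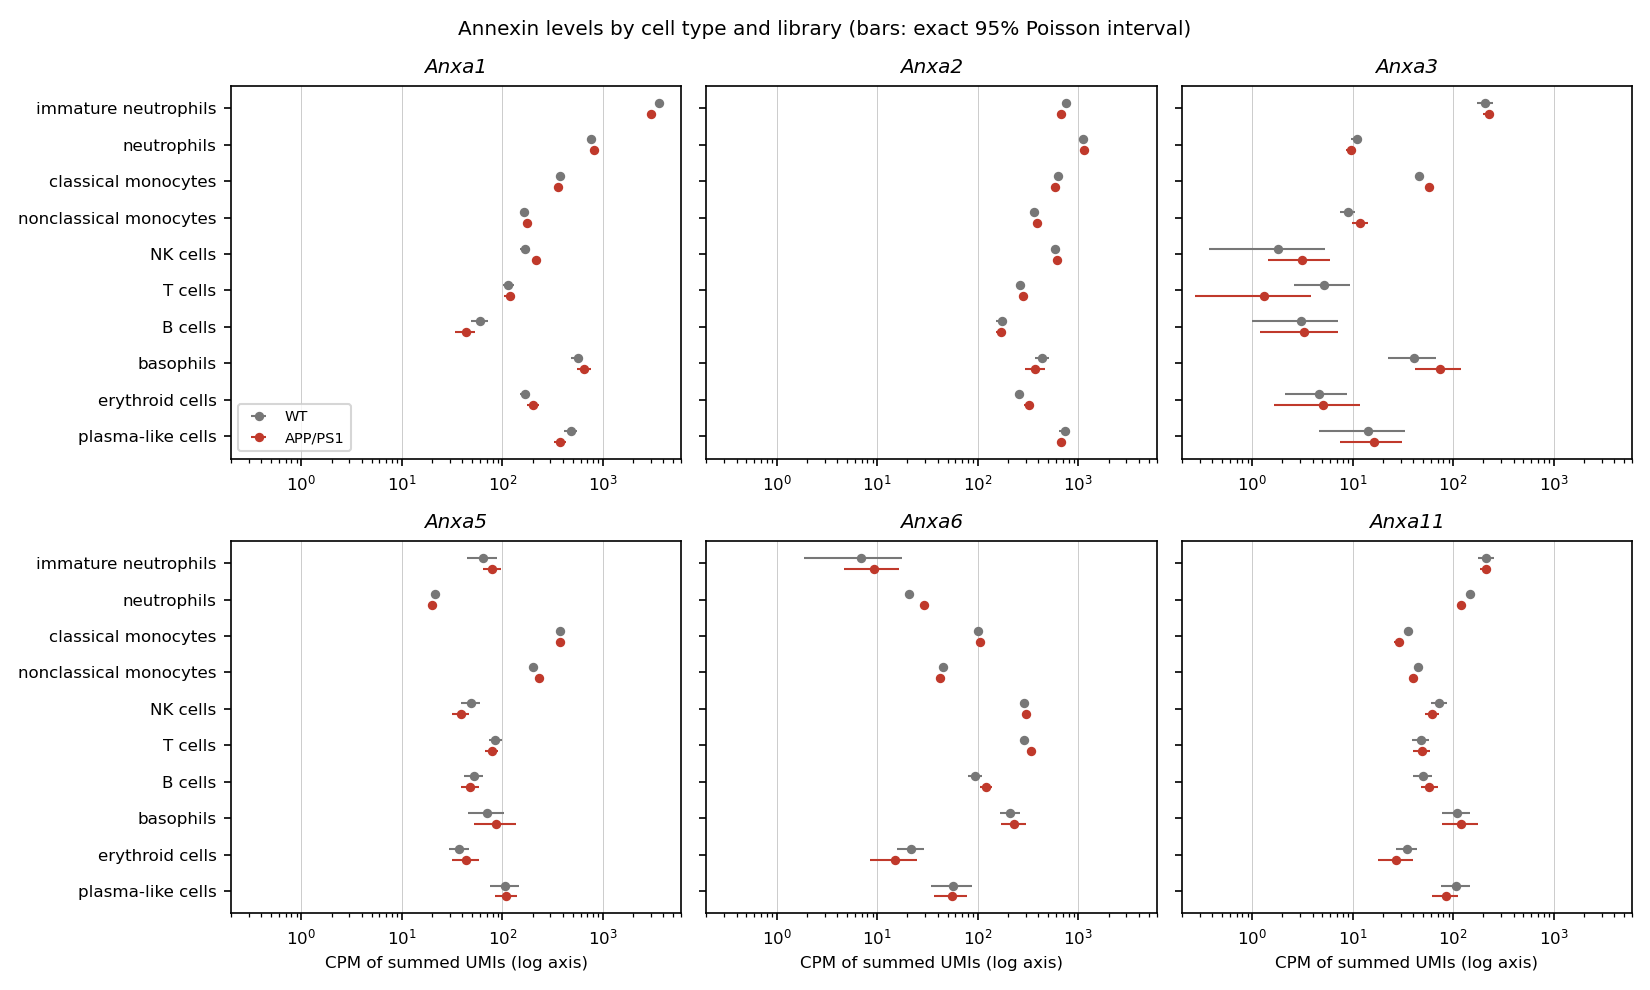
Level of each annexin, in CPM of summed UMIs on a log axis, for 10 cell types in the WT (grey) and APP/PS1 (red) library, with bars for the exact 95% Poisson interval. Anxa1 runs from 43.2 CPM in APP/PS1 B cells to 3590.2 CPM in WT immature neutrophils, and Anxa5 and Anxa6 are low in neutrophils.

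Anxa1 separated the immature from the mature neutrophils. In immature neutrophils it reached 3590.2 CPM in WT (3438 to 3748) against 2994 CPM in APP/PS1 (2896 to 3094). In the other neutrophils it stood at 768 CPM (WT) and 822 CPM (APP/PS1), and the immature cells were 4.68-fold higher in WT (4.47 to 4.90) against 3.64-fold higher in APP/PS1 (3.51 to 3.77). Basophils followed at 560.0 and 653 CPM, then plasma-like cells at 479.6 and 373 CPM and classical monocytes at 376 and 356 CPM. NK cells, erythroid cells and nonclassical monocytes came next in this order, at 169.6, 168 and 166 CPM in WT and 216, 203 and 177 CPM in APP/PS1. Neighbours in it had overlapping intervals, but in APP/PS1 those of NK cells and nonclassical monocytes did not overlap. T cells (115 and 119 CPM) and B cells (59.7 and 43.2 CPM) were lowest, with B cells clearly under T cells in both libraries.

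Anxa2 was highest in mature neutrophils. Neutrophils held 1118 CPM (WT) and 1129 CPM (APP/PS1), and immature neutrophils 756 and 665 CPM. By CPM, mature neutrophils thus stood above the immature ones, by 1.48-fold in WT (1.34 to 1.63) against 1.70-fold in APP/PS1 (1.58 to 1.82), which is the opposite order to that of Anxa1. Per 100 cells the order turned, with 494 UMIs in immature and 316 in mature neutrophils of WT, and 445 and 339 in APP/PS1. Median depth was 6297 and 2544 UMIs per cell in WT and 6645 and 2684 in APP/PS1. Classical monocytes, also deeper, held 521 and 450 UMIs per 100 cells. Plasma-like cells (736 and 677 CPM) had intervals that overlapped those of immature neutrophils in both libraries. Below both in level came classical monocytes (629 and 589.8 CPM) and NK cells (583 and 610.2 CPM), whose intervals overlapped in both libraries. In APP/PS1 the NK cell interval also overlapped those of immature neutrophils and plasma-like cells. The plasma-like level was mostly that expected from free neutrophil RNA, as given below. Among lymphocytes NK cells exceeded T cells by 2.22-fold in WT and 2.17-fold in APP/PS1, and B cells were lowest of all types with 173 and 171 CPM.

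Anxa3 was highest in immature neutrophils, followed by classical monocytes and basophils. It gave 208 CPM in immature neutrophils of WT (173 to 248) and 225 CPM in APP/PS1 (198 to 253). In the mature neutrophils it stood at 10.96 CPM (WT) and 9.66 CPM (APP/PS1), a difference of 19.0-fold in WT (15.1 to 23.7) against 23.3-fold in APP/PS1 (19.6 to 27.6). Classical monocytes held 45.6 and 57.4 CPM, about the level of basophils (40.6 and 73.6 CPM), and nonclassical monocytes 8.94 and 11.9 CPM. T, B and NK cells each had between 3 and 11 UMIs of Anxa3 per library, too few to order them.

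Anxa5 marked the monocytes. Its level was 378 CPM in classical monocytes of WT (370 to 387) and 371 CPM in APP/PS1 (361 to 382), and 203 and 234 CPM in nonclassical monocytes. Neutrophils had the lowest level of all types other than platelets, 21.6 CPM (WT) and 19.9 CPM (APP/PS1). Classical monocytes exceeded them 17.5-fold in WT (15.9 to 19.2) against 18.7-fold in APP/PS1 (17.1 to 20.5). Immature neutrophils stood between, at 63.6 and 79.4 CPM. Mature neutrophils thus held 0.057 (WT) and 0.053 (APP/PS1) of the Anxa5 level of classical monocytes. The 5 classical monocyte markers stood in them at 7.38% and 6.05% of their own level. No monocyte RNA was taken off, and its part in the neutrophil Anxa5 level was not tested. T cells held more than NK cells in both libraries, 85.2 against 48.5 CPM in WT and 78.5 against 38.8 CPM in APP/PS1.

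Anxa6 was highest in T and NK cells, with basophils next. T cells held 289.7 CPM in WT (267 to 314) against 335 CPM in APP/PS1 (312 to 359), NK cells 287 and 302 CPM, and their intervals overlapped in each library. The log2 ratio of T over NK cells was 0.01 in WT (-0.16 to 0.19) but 0.15 in APP/PS1 (0.01 to 0.29). Basophils, at 211 and 229.9 CPM, had level intervals that overlapped those of NK cells, and no ratio was computed for this pair. B cells held 94.5 and 121 CPM and classical monocytes 99.8 and 105 CPM, again with overlapping intervals. Neutrophils were at 20.6 CPM (WT) and 29.2 CPM (APP/PS1), and immature neutrophils at 6.87 and 9.29 CPM, from only 4 and 11 UMIs. T cells thus exceeded neutrophils by 14.0-fold in WT and 11.5-fold in APP/PS1. The T cells held a smaller cluster led by Il7r, Trdc and Rora (90 WT and 75 APP/PS1 cells) and a larger one led by Cd8b1. In WT the smaller held 390.1 CPM of Anxa6 (336 to 450) against 261 CPM in the larger (236 to 287). In APP/PS1 the intervals overlapped, at 377 CPM (321 to 440) against 325 CPM (300 to 352).

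Anxa11 was highest in the neutrophil lineage. It stood at 213 CPM in immature neutrophils of WT (177 to 254) and 212 CPM in APP/PS1 (187 to 239.9), and at 146 and 119 CPM in mature neutrophils. Basophils were alike to the mature neutrophils within the intervals, at 108 CPM (WT) and 119.6 CPM (APP/PS1). Classical monocytes were among the lowest, with 35.6 and 28.6 CPM, and neutrophils exceeded them 4.10-fold in WT and 4.15-fold in APP/PS1. An antisense gene, Anxa11os, overlaps Anxa11 on chromosome 14 (25856777 to 25870266, minus strand) and is counted on its own strand by this kit. It was highest in basophils, at 40.6 and 46.0 CPM, with 17.8 and 20.2 CPM in neutrophils and at most 3.05 CPM in B, T and NK cells and monocytes.

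The 16 platelet-like cells of each library gave 0 to 6 UMIs per member, out of 25559 UMIs in WT and 25164 in APP/PS1, so their levels were not compared. There were no UMIs of Anxa3 or Anxa6, and taken as 3 UMIs the limit that a count of 0 allows was 117 CPM (WT) and 119 CPM (APP/PS1).

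Neutrophil RNA free in the suspension would add UMIs to the other cell types. S100a8 and S100a9 were highest in the neutrophil types. The annexin UMIs that free neutrophil RNA would bring to a cell type were worked out from the S100a8 and S100a9 UMIs there and the ratio of each annexin to both genes in neutrophils of that library. This scaling takes all S100a8 and S100a9 UMIs there as free RNA. It cannot tell free RNA from doublets or from transcripts of the cell itself, and the source was not tested. For Anxa1 this came to 94.2% of the UMIs of WT and 86.0% of those of APP/PS1 B cells, and to 87.2% and 115% in erythroid cells, so these levels were at the background. It came to 13.9% and 13.7% in classical monocytes and 14.8% and 11.05% in basophils, which kept 477 and 581 CPM after it was taken off. It was between these in NK cells (49.3% and 46.4%), T cells (49.2% and 66.0%) and nonclassical monocytes (47.8% and 51.8%). For Anxa2 the share was 47.3% and 29.9% in B cells, 31.2% and 38.1% in T cells and 20.9% and 22.5% in NK cells, and in erythroid cells it was 83.1% and 100.2%. In plasma-like cells the Anxa2 share was 84.5% and 64.0%, which left 114 CPM (WT) and 244 CPM (APP/PS1). Classical monocytes kept 553 and 523 CPM of Anxa2 and NK cells 461 and 473 CPM, above the plasma-like cells. For Anxa5 and Anxa6 it was at most 7.67% in the monocytes and in the B, T and NK cells of both libraries. For Anxa11 it was 27.9% and 24.5% in classical monocytes, which kept 25.7 CPM (WT) and 21.6 CPM (APP/PS1). The Anxa11 share was 33.9% and 33.1% in nonclassical monocytes and 80.2% and 124% in erythroid cells. The order of NK over T over B cells for Anxa1 was kept after the subtraction, at 86.0, 58.2 and 3.47 CPM in WT and 116, 40.3 and 6.04 CPM in APP/PS1.

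The neutrophils, mature and immature together, were clustered again without the annexins and without genes that differed between the libraries, and gave 6 clusters. The largest, with 3402 WT and 3474 APP/PS1 cells, was led by Stfa2, Stfa1 and Retnlg. The next was led by platelet genes such as Clec1b, Itga2b and Ppbp (1515 and 2241 cells), the third by Clec4n, Dusp2, Nfkbia and Csf1 (1342 and 2358), the fourth by the interferon-induced genes Ifit3 and Ifit1 (1094 and 1221) and the fifth by Camp, Ngp and Ltf (166 and 222). A last cluster of 54 and 63 cells was led by mitochondrial genes and is not described further.

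**Figure D2:**
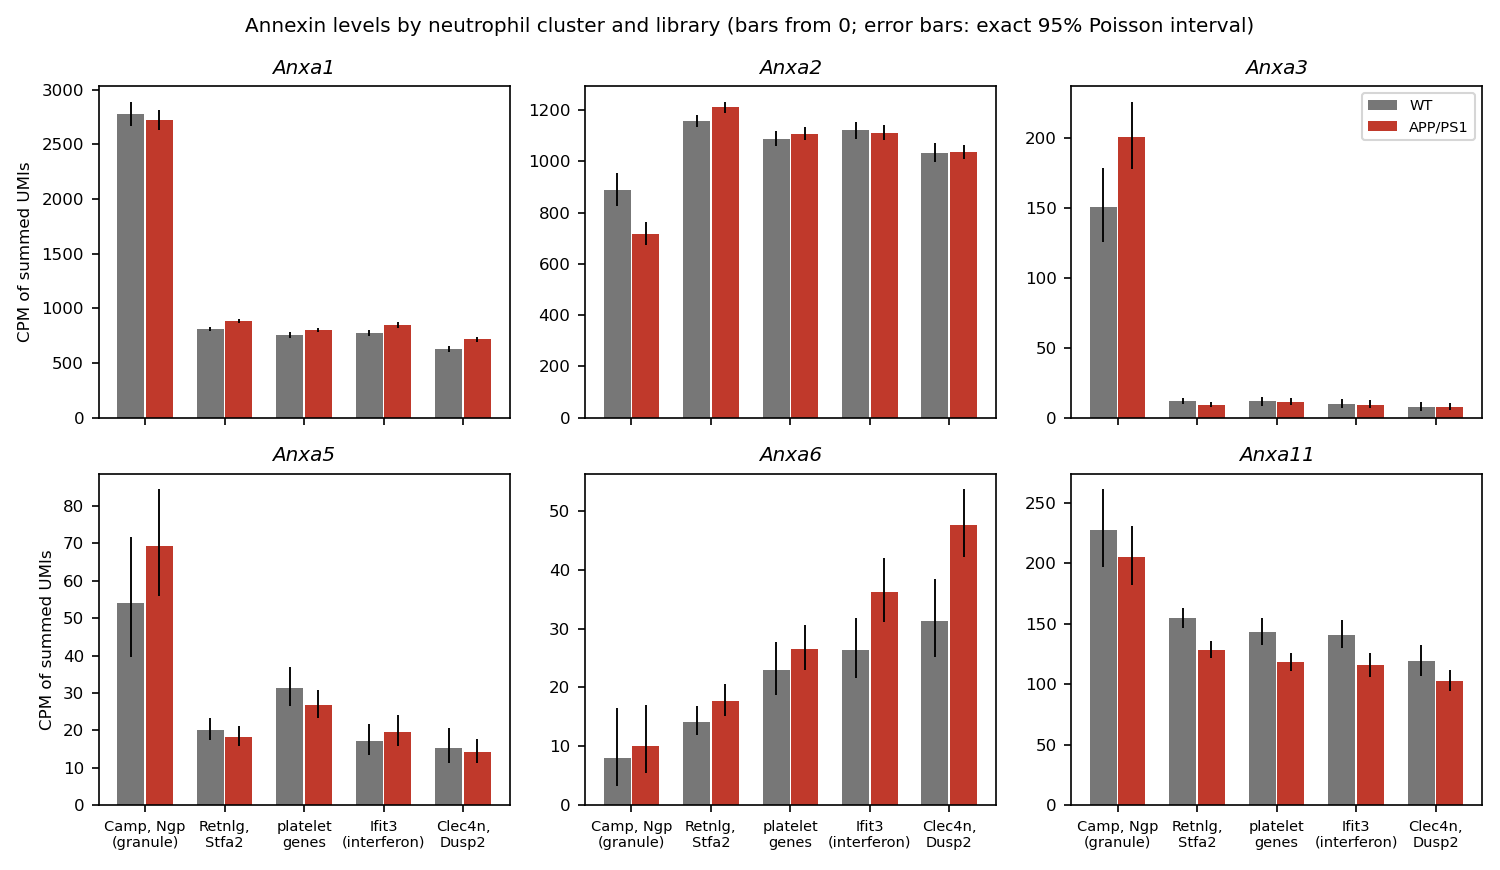
Level of each annexin, in CPM of summed UMIs on axes that start at 0, in 5 neutrophil clusters of the WT (grey) and APP/PS1 (red) library, with error bars for the exact 95% Poisson interval. Anxa1, Anxa3, Anxa5 and Anxa11 are highest in the cluster led by Camp and Ngp, where Anxa2 and Anxa6 are lowest, and Anxa6 is highest in the cluster led by Clec4n and Dusp2.

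Anxa1 differed most between the granule-gene cluster and the rest. It was at 2776 CPM there in WT and 2721 CPM in APP/PS1, against 806 and 882 CPM in the Retnlg cluster and 624 and 715 CPM in the Clec4n cluster. The Clec4n cluster was thus lower than the Retnlg cluster in both libraries, with log2 ratios of -0.37 in WT (-0.45 to -0.30) against -0.30 in APP/PS1 (-0.36 to -0.25). The clusters with platelet genes (753 and 803 CPM) and interferon genes (773 and 844 CPM) lay near the Retnlg cluster.

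Anxa2 ran the other way and was lowest in the granule-gene cluster, at 889 CPM (WT) and 715 CPM (APP/PS1). The remaining clusters spanned 1032 to 1158 CPM in WT and 1035 to 1211 CPM in APP/PS1. Anxa3 was 12.8-fold higher in the granule-gene cluster than in the Retnlg cluster in WT and 22.2-fold higher in APP/PS1, and it was between 7.31 and 11.8 CPM in the other 4 described clusters of both libraries. Anxa11 was also highest in the granule-gene cluster and lowest in the Clec4n cluster, from 227 and 205 CPM through 155 and 128 CPM in the Retnlg cluster to 119 and 103 CPM.

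Anxa6 was lowest in the granule-gene and Retnlg clusters and highest in the Clec4n cluster. It was at 14.2 CPM in the Retnlg cluster of WT and 17.7 CPM in APP/PS1, at 22.9 and 26.6 CPM with platelet genes, at 26.3 and 36.2 CPM with interferon genes and at 31.3 and 47.6 CPM in the Clec4n cluster. The Clec4n cluster exceeded the Retnlg cluster 2.21-fold in WT (log2 ratio 1.14, 0.74 to 1.54) against 2.69-fold in APP/PS1 (1.43, 1.15 to 1.71). Anxa5 was low in all mature clusters, and the cluster with platelet genes was above the Retnlg cluster, at 31.4 against 20.1 CPM in WT and 26.7 against 18.3 CPM in APP/PS1.

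The genotypes differed little in annexin level (the plot of ratios between the genotypes). Of 66 pairs of a member and a cell type, 39 had at least 200 UMIs over both libraries, and 0 of these 39 passed 0.5 on the log2 scale, the fold used in the study's methods. Other ways of processing took 4 of them past it, Anxa6 in neutrophils, Anxa3 in nonclassical monocytes and Anxa1 and Anxa2 in T cells, as given below. The log2 ratio of APP/PS1 over WT had an interval above 0 in 12 pairs, below 0 in 7 and across 0 in 20. All 6 members could be read in neutrophils and in both kinds of monocyte, 5 in T cells, 4 in NK cells and in immature neutrophils, and 2 in each of the other types apart from platelets.

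**Figure D3:**
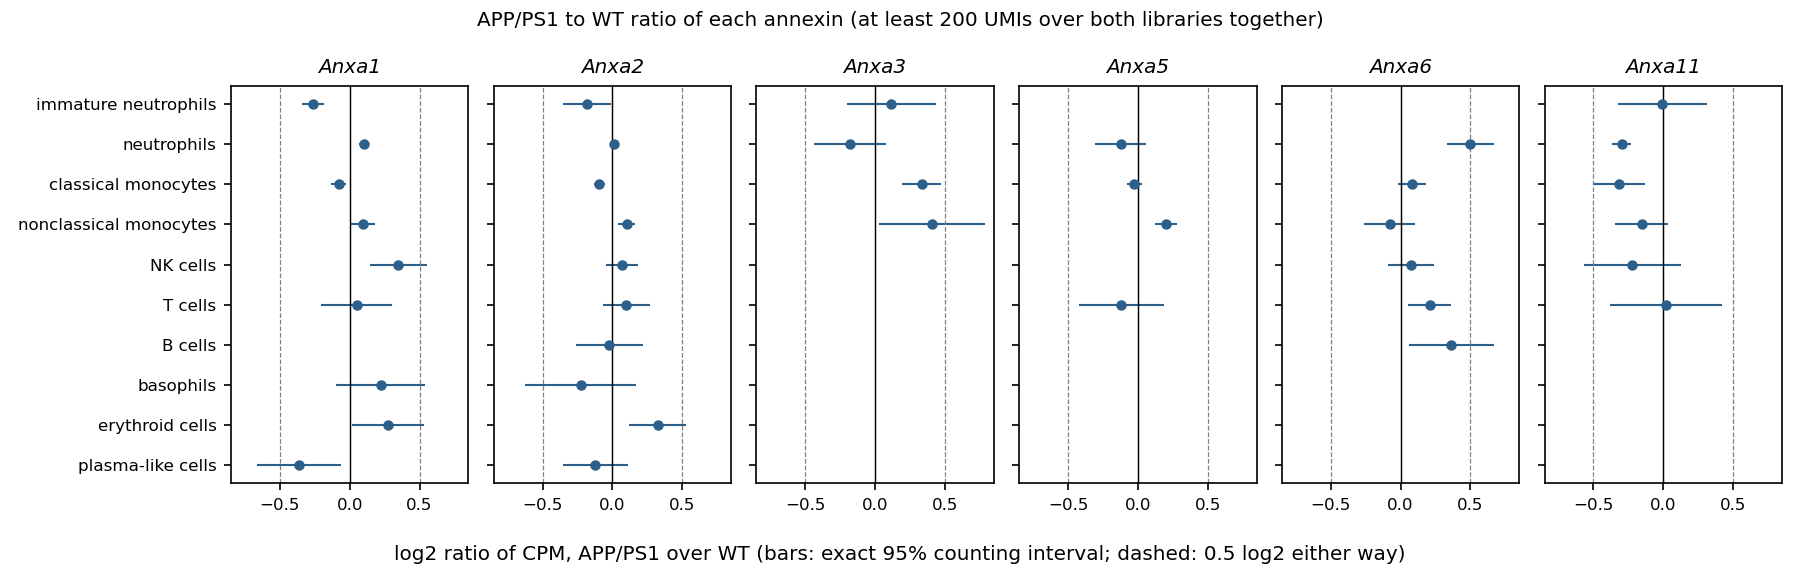
Log2 ratio of CPM in the APP/PS1 library over the WT library for each annexin and cell type with at least 200 UMIs over both libraries, with bars for the exact 95% counting interval and dashed lines at 0.5 on either side of 0. Points lie between -0.36 and 0.50, Anxa6 in neutrophils being the highest and Anxa1 in plasma-like cells the lowest.

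In neutrophils, 6.8% of 7042 genes lay past 0.5 log2 in either direction, 3.92% higher in APP/PS1 and 2.88% lower, and 0 of the 6 annexins did. Anxa6 sat at the limit itself, with 437 UMIs and 20.6 CPM in WT and 825 UMIs and 29.2 CPM in APP/PS1, a log2 ratio of 0.50 (0.33 to 0.67). It lay just past the limit with annexins kept among the clustering features (0.5015), with no percentile limits (0.5008) and as a mean over cells (0.5093), and at 0.55 with cells assigned singly by markers. It lay under the limit with TMM library sizes (0.458) and with library sizes that leave out abundant gene classes (0.451). So it did with called doublets removed (0.489), a 5% mitochondrial limit (0.491) and a resolution of 0.6 (0.493). Anxa11 had 3091 UMIs in WT and 3355 in APP/PS1, and at 146 and 119 CPM its log2 ratio was -0.30 (-0.37 to -0.23). Anxa1 was slightly higher in APP/PS1, with a log2 ratio of 0.10 (0.07 to 0.13), while Anxa2 (0.01, -0.01 to 0.04), Anxa3 (-0.18, -0.44 to 0.08) and Anxa5 (-0.12, -0.30 to 0.06) had intervals that held 0. The median gene of neutrophils stood at a log2 ratio of 0.05, and at 0.01 with TMM library sizes.

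Anxa6 was also higher in APP/PS1 within each of the 4 mature clusters, although not always beyond counting error. Its log2 ratio was 0.60 in the Clec4n cluster (0.26 to 0.97), 0.46 with interferon genes (0.11 to 0.82), 0.32 in the Retnlg cluster (-0.02 to 0.66) and 0.22 with platelet genes (-0.13 to 0.57), so 2 of the 4 intervals held 0. With the clusters given the same weight in both libraries, Anxa6 stood at 21.4 CPM (WT) and 28.4 CPM (APP/PS1), a log2 ratio of 0.41. Anxa6 is a gene of T and NK cells, and the 6 T cell markers summed to 11.01 CPM in neutrophils of WT and 49.5 CPM in APP/PS1, none of the 6 being at 0. Cd3d alone gave 142 and 1231 of these UMIs, and the other 5 markers gave 91 and 168. The 5 NK markers summed to 16.4 and 23.5 CPM and the 5 B cell markers to 4.06 and 4.28 CPM. The 5 classical monocyte markers stood in neutrophils at 7.38% of their own level in WT and 6.05% in APP/PS1. Scaled by these markers, classical monocyte RNA would bring 156 of the 437 Anxa6 UMIs in WT and 180 of the 825 in APP/PS1. For nonclassical monocytes the values were 93.5 and 127. For T cells they were 25.3 and 155 by all 6 markers, most of whose UMIs were of Cd3d, and no value was computed without Cd3d. Neutrophils holding monocyte marker UMIs were not left out, and the part of monocyte RNA was not tested. In the 5276 and 6053 neutrophils with no UMI of a T, B, NK or plasma cell marker, Anxa6 was at 19.3 CPM (WT) and 28.9 CPM (APP/PS1), a log2 ratio of 0.58, and in those with no platelet marker UMI it was at 19.6 and 32.7 CPM (log2 ratio 0.73).

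The lower Anxa11 level was seen in all 4 mature clusters, with log2 ratios of -0.27 in the Retnlg cluster (-0.38 to -0.16), -0.28 with platelet genes (-0.43 to -0.13), -0.29 with interferon genes (-0.46 to -0.12) and -0.21 in the Clec4n cluster (-0.41 to -0.01). Anxa11os did not share this direction, with a log2 ratio of 0.18 in neutrophils (-0.01 to 0.37) from 377 and 570 UMIs. For Anxa1 the ratios of the same 4 clusters were 0.13, 0.09, 0.13 and 0.20, each with an interval above 0.

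In immature neutrophils, where 6.15% of 959 genes passed the fold and 0 of the 4 annexins read there did, Anxa1 was lower in APP/PS1 by a log2 ratio of -0.26 (-0.34 to -0.18) and Anxa2 by -0.18 (-0.35 to -0.01). Anxa3 (0.11, -0.20 to 0.43) and Anxa11 (-0.01, -0.32 to 0.31) had intervals across 0. The Anxa1 difference was not stable to how the cells were drawn, since the granule-gene cluster of the second clustering, with 166 and 222 cells, gave -0.03 (-0.10 to 0.05). That cluster gave 0.42 for Anxa3 (0.11 to 0.73) and -0.31 for Anxa2 (-0.45 to -0.18). The 6 T cell markers stood at 18.9 CPM in the immature neutrophils of WT, 4 of them at 0, and at 176 CPM in APP/PS1, with Lef1 at 0 in both; Cd3d gave 10 and 187 of these UMIs, and their part in the result was not tested.

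In classical monocytes 3.74% of 8173 genes passed the fold, 1.41% higher and 2.34% lower, and 0 of 6 annexins did. Anxa3 was higher in APP/PS1, at 57.4 against 45.6 CPM (log2 ratio 0.33, 0.19 to 0.47), and Anxa11 lower, at 28.6 against 35.6 CPM (-0.31, -0.50 to -0.13), although with called doublets removed the Anxa11 ratio was -0.11. Anxa1 (-0.08) and Anxa2 (-0.09) were lower with intervals under 0, and Anxa5 (-0.03, -0.08 to 0.03) and Anxa6 (0.08, -0.02 to 0.18) were not separated. In nonclassical monocytes 3.54% of 7550 genes passed and 0 of 6 annexins. Anxa5 was higher there, at 234 against 203 CPM (0.20, 0.12 to 0.28), as were Anxa3 (0.41, 0.03 to 0.79) and Anxa2 (0.10, 0.04 to 0.16). Anxa1 gave 0.09 (0.00 to 0.18), but after free neutrophil RNA was taken off it was at 86.6 CPM in WT against 85.3 CPM in APP/PS1. Anxa3 thus lay higher in the APP/PS1 library in both kinds of monocyte, although its value in nonclassical monocytes rested on 131 and 110 UMIs and came to 0.03 once called doublets were removed and to 0.63 as a mean over cells.

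In NK cells, where 2.81% of 3376 genes passed the fold, 0 of 4 annexins did. Anxa1 was higher in APP/PS1 NK cells, at 216 against 170 CPM (log2 ratio 0.35, 0.14 to 0.55), and at 116 against 86.0 CPM after free neutrophil RNA was taken off. In T cells 5.9% of 3188 genes passed and 0 of 5 annexins. Anxa6 was higher in APP/PS1 T cells, at 335 against 289.7 CPM (0.21, 0.05 to 0.36), while Anxa1 gave 0.05 (-0.21 to 0.31) and moved to 0.73 when cells were assigned singly by their markers. Anxa2 in T cells gave 0.10 (-0.07 to 0.27), and 0.60 with cells assigned singly. Anxa5 in T cells gave -0.12 (-0.42 to 0.19), and 0.27 with a 5% mitochondrial limit. In B cells 6.7% of 2268 genes passed and 0 of 2 annexins. Anxa6 was at 121 against 94.5 CPM there, a log2 ratio of 0.36 (0.06 to 0.67) from 222 and 155 UMIs.

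The remaining types were read for Anxa1 and Anxa2 only. Passing shares of genes were 11.7% of 420 in basophils, 22.7% of 815 in erythroid cells and 13.4% of 598 in plasma-like cells, and 0 of 2 annexins passed in each. Anxa1 (0.28, 0.02 to 0.53) and Anxa2 (0.32, 0.12 to 0.53) were higher in erythroid cells of APP/PS1, in which the S100a8 and S100a9 level also was higher (36425 against 29757 CPM) and the median of all genes stood at 0.22. In plasma-like cells Anxa1 was lower (-0.36, -0.66 to -0.06), and so was the S100a8 and S100a9 level (49002 against 86792 CPM). After free neutrophil RNA was taken off, Anxa1 in plasma-like cells was at 52.5 CPM (WT) and 57.9 CPM (APP/PS1). In erythroid cells Anxa2 was at 43.4 and -0.50 CPM and Anxa1 at 21.5 and -30.9 CPM. Each of these directions turned, but the values left have no interval, and the erythroid ones were at the background.

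The share of cells with at least 1 UMI of a member followed the levels in part. Each cell was thinned to 1000 UMIs, which left out 0 cells of WT and 3 of APP/PS1. Plasma-like cells were above classical monocytes in Anxa1 CPM but below them in share, at 24.1% against 28.4% in WT and 22.2% against 29.4% in APP/PS1. Anxa1 was seen in 92.1% of immature neutrophils of WT (84.5 to 96.8%) and 89.8% of APP/PS1 (84.4 to 93.9%), against 48.0% and 48.3% of mature neutrophils. Without thinning the shares of mature neutrophils were 74.6% and 76.2%. In B cells, which were at the background for Anxa1, 5.28% and 2.93% had a UMI (13.9% and 13.03% without thinning), at a median depth of 5001 and 5875 UMIs against 2544 and 2684 in neutrophils. Anxa3 was seen in 18.0% and 18.1% of immature and 1.08% and 0.904% of mature neutrophils. Anxa6 was seen in 2.23% of neutrophils of WT (1.91 to 2.59%) and 2.99% of APP/PS1 (2.65 to 3.35%), and in 27.3% and 28.6% of T cells. Anxa11 was seen in 13.8% (13.04 to 14.6%) and 10.5% (9.91 to 11.2%) of neutrophils.

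The partners of the annexins were read from a list of 47 genes, of which 33 reached 200 UMIs in neutrophils (the plot of partner genes). In neutrophils 4 of the 33 were over 0.5 log2 higher in APP/PS1, 4 were over 0.5 lower and 25 lay between, with a median log2 ratio of -0.02, beside 3.92% higher and 2.88% lower among all genes read there. In classical monocytes 1 of 36 was higher, 1 lower and 34 lay between, with a median of -0.10, beside 1.41% higher and 2.34% lower among all genes.

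**Figure D4:**
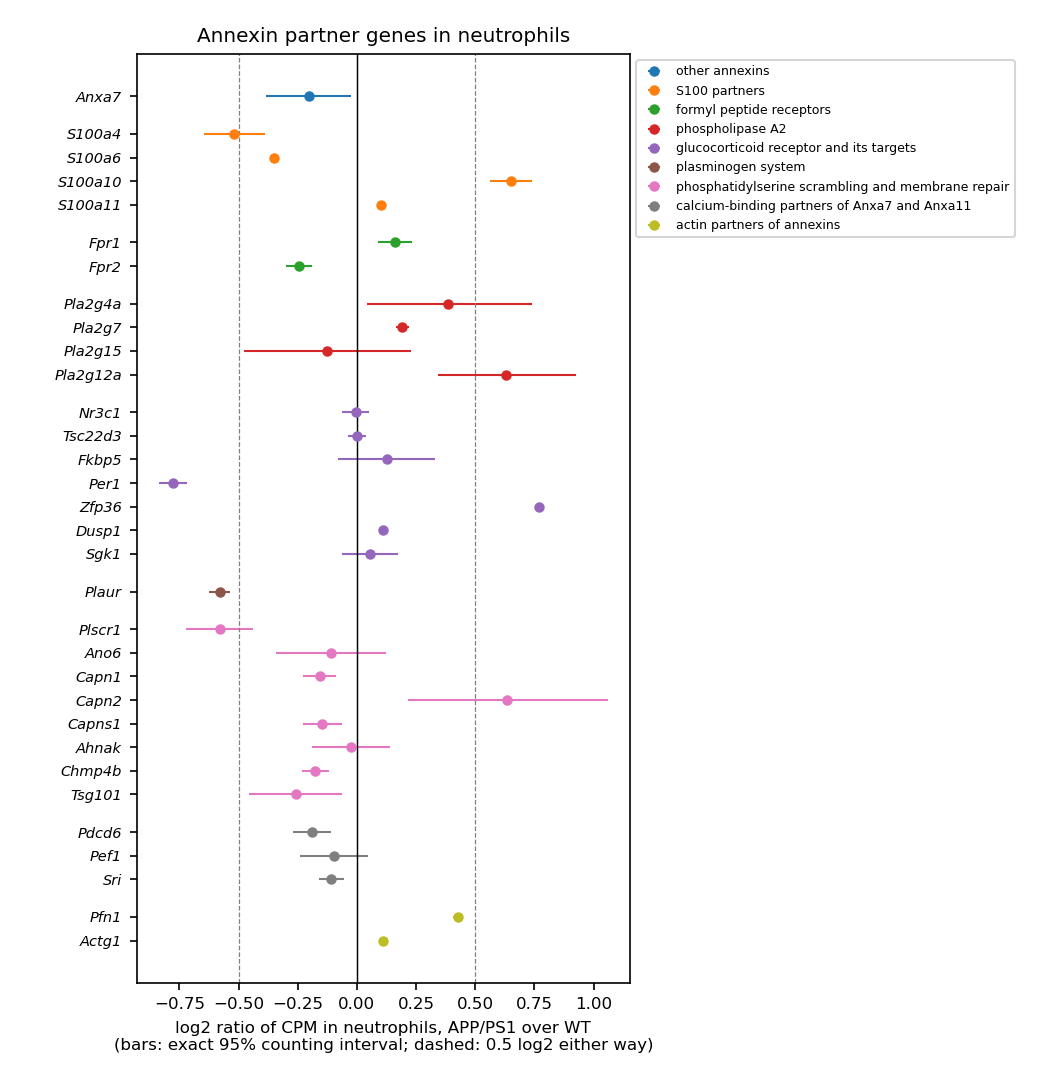
Log2 ratio of CPM in neutrophils of the APP/PS1 library over the WT library for partner genes with at least 200 UMIs, of which 1 is not shown, coloured by group, with bars for the exact 95% counting interval and dashed lines at 0.5 on either side of 0. Zfp36, S100a10, Capn2 and Pla2g12a lie past the right line, and Per1, Plscr1, Plaur and S100a4 past the left one.

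Of the S100 partners, S100a10, the light chain that binds Anxa2, was higher in APP/PS1 neutrophils, at 110.5 against 70.4 CPM (log2 ratio 0.65, 0.56 to 0.74). It was higher in each of the 4 mature clusters, from 0.36 in the Clec4n cluster to 0.60 with platelet genes, where its level was also highest (164 and 249 CPM). Without cells holding a lymphocyte marker UMI its ratio was 0.68 (0.57 to 0.80). Platelets held 2543 CPM of S100a10 in both libraries, and the 5 platelet markers summed to 740.1 CPM in neutrophils of WT and 901 CPM in APP/PS1, none of them at 0. In the 3066 and 3616 neutrophils with no platelet marker UMI, S100a10 was lower in both libraries and below the fold, at 30.5 CPM (WT) and 38.4 CPM (APP/PS1) (0.33, 0.09 to 0.57). S100a4, which is known from motile cells, was lower, at 32.9 against 47.1 CPM (-0.52, -0.65 to -0.39). S100a6 was at 6413 against 8169 CPM (-0.35) and S100a11, which binds Anxa1, at 8479.8 against 7911 CPM (0.10). By cell type S100a10 was at 1435 CPM in T cells of WT, 1232 CPM in NK cells and 706 CPM in classical monocytes, so the partner of Anxa2 was high where Anxa6 was high, while S100a11 was highest in neutrophils.

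The receptors through which Anxa1 acts were read in neutrophils. Fpr1 was at 119 CPM (WT) and 133 CPM (APP/PS1) (log2 ratio 0.16, 0.09 to 0.23), and Fpr2 at 234 and 198 CPM (-0.24, -0.30 to -0.19). Fpr2 was higher still in immature neutrophils, at 516 and 432 CPM, together with Anxa1, and in classical monocytes it was at 42.6 and 42.8 CPM. Fpr3 had 0 UMIs in every cell type.

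Among the glucocorticoid receptor and its targets, Nr3c1, the receptor, was at 207 CPM in neutrophils of WT and 206 CPM in APP/PS1, and its target Tsc22d3 at 436 and 437 CPM. Zfp36, which binds mRNA of inflammatory genes for decay, was higher (1739 CPM in WT, 2963 CPM in APP/PS1, 0.77) and Per1, a clock gene, lower (245 and 143 CPM, -0.78). Both kept this direction in classical monocytes, at 0.64 and -0.84. Plaur, the urokinase receptor of the plasminogen system, was lower in neutrophils (395 and 264 CPM, -0.58, -0.62 to -0.53), and it gave -0.42 in classical monocytes. Plscr1, a membrane protein named for phospholipid scrambling and induced by interferon, was at 41.2 and 27.6 CPM (-0.58, -0.72 to -0.44). Capn2, a calpain subunit (0.63), and Pla2g12a, a secreted phospholipase A2 (0.63), were past the fold on few UMIs, 72 and 149 for Capn2 and 147 and 304 for Pla2g12a, and both were highest in the cluster with platelet genes. In neutrophils with no platelet marker UMI, neither was past the fold, with 13 and 21 UMIs of Pla2g12a (0.42, -0.65 to 1.54) and 15 and 20 of Capn2 (0.14, -0.90 to 1.21). The calcium-binding partners of Anxa11, Pdcd6 (-0.19), Pef1 (-0.10) and Sri (-0.11), lay between the limits.

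Genes with the pattern most like each annexin were sought over 19 profiles of a cell type in a library with at least 50 cells, among 10526 genes, by Pearson's r of log2(CPM + 1). The profiles share libraries, depth and free RNA, so r is a description. Closest were Tmem40, Padi4 and Rab3d for Anxa1 (r from 0.95 to 0.96), Sdcbp, Mrpl33 and Card19 for Anxa2 (0.93 to 0.96), Acvrl1, Zfp516 and Rhou for Anxa3 (0.92 to 0.93), Camkk2, Tmem141 and Syngr2 for Anxa5 (0.92 to 0.94), S100a10, Lgals1 and Itgb7 for Anxa6 (0.95 to 0.97) and Capn1, Gm11714 and 4933408B17Rik for Anxa11 (0.91 to 0.96). Among the members themselves Anxa1 was most like Anxa3 (0.83) and Anxa2 (0.79) and least like Anxa6 (-0.62).

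Of the 6 other annexins, Anxa4 was read mainly in monocytes and Anxa7 more widely. Anxa7 was at 89.6 and 78.2 CPM in classical monocytes and 64.7 and 63.7 CPM in nonclassical monocytes. It was at 63.6 and 74.3 CPM in immature neutrophils, from 37 and 88 UMIs, and at 22.6 and 19.6 CPM in neutrophils. T cells held 46.9 and 50.1 CPM of Anxa7 and NK cells 43.8 and 44.3 CPM. Anxa4 was at 42.1 and 38.5 CPM in classical monocytes and 2.36 and 1.34 CPM in neutrophils. In neutrophils Anxa7 had a log2 ratio of -0.20 (-0.38 to -0.02), and in classical monocytes it gave -0.20 (-0.31 to -0.09). Anxa8 and Anxa9 gave too few UMIs to be read in any cell type, and Anxa10 and Anxa13 had 0 UMIs.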

How the data were processed

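Blood cells of WT and APP/PS1 mice were profiled with the 10x Genomics 3′ kit, version 3, 1 library per genotype. The deposited values are raw UMI counts of every gene in each called cell, which the authors made with Cell Ranger 5.0.0 on mm10. In each library, cells below percentile 5 or above percentile 95 for UMIs or for genes were left out, as were those with over 10% mitochondrial UMIs. Cells were clustered with Seurat 5.3.0 in R 4.3.3 on 2000 variable features less the annexins, 15 principal components and a resolution of 0.2, and clusters were named by marker lists. Scrublet (scanpy 1.11.5) was used to call doublets, at 8% expected. They stayed in, and they were removed in an alternative. The automatic threshold was 0.217 in the WT library and 0.728 in the APP/PS1 library, and that of WT was used for both.

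UMIs were summed per library and cell type and divided by all UMIs there (CPM). Intervals were computed with scipy 1.17.1 in Python 3.11.15 at the 95% level, by the exact Poisson method for levels, the exact conditional binomial method for ratios and Clopper-Pearson for shares. The ratio and level intervals were checked on Poisson counts simulated from the summed neutrophil profile. These counts vary by counting error only, so the check cannot speak to variation between cells, mice or libraries. The neutrophils were clustered again with anchors between the libraries, without annexins and without genes that differed by over 0.5 log2 between the libraries, at the lowest resolution that gave at least 6 clusters. A ratio was read where a gene had at least 200 UMIs over both libraries. Library sizes by TMM came from edgeR 4.0.16. Members, partner and marker lists were chosen with earlier results of these data known. The limits for naming clusters and calling doublets were set after the data had been seen. Named were all 6 members, partners past the fold in neutrophils, the S100 and formyl peptide receptor genes and the 3 genes most like each member; other partners named were chosen after their values were seen. Flow cytometry, imaging and human data were not used here. The values of 1 partner gene are not reported here.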

Additional observations from a re-analysis of the deposited data

Results flagged for a closer look

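For 2 annexins the genotype ratio had opposite signs in different cell types, with both intervals clear of 0. Anxa1 was higher in NK cells of the APP/PS1 library, at a log2 ratio of 0.35 (0.14 to 0.55), and lower in plasma-like cells, at -0.36 (-0.66 to -0.06), so the ratios lay 0.71 apart. After the expected free neutrophil RNA was taken off, the plasma-like level was 52.5 CPM (WT) and 57.9 CPM (APP/PS1), the other direction. Anxa2 was higher in erythroid cells, at 0.32 (0.12 to 0.53), and lower in immature neutrophils, at -0.18 (-0.35 to -0.01), so the ratios lay 0.51 apart. The median of all genes in erythroid cells was 0.22, and after free neutrophil RNA was taken off Anxa2 was there at 43.4 CPM (WT) and -0.50 CPM (APP/PS1). With 1 library per genotype, neither difference was tested.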

How the results depend on the processing

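With 1 library per genotype, the values have no replicate error, and leaving out a library in turn was not possible. No paired analysis was possible because each genotype has 1 library and no value comes from a test. Anxa3, Anxa5 and Anxa6 in neutrophils rest on 232 to 825 UMIs per library, and pairs of an annexin and a cell type under 200 UMIs were left out by that limit, whatever their interval.

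Where ratios were recomputed, none with an interval clear of 0 changed its sign. Free neutrophil RNA was taken off levels only. Among ratios read with an interval clear of 0, it turned Anxa1 in nonclassical monocytes, plasma-like and erythroid cells and Anxa2 in erythroid cells. Among those with an interval across 0, it turned Anxa1 in T cells and Anxa2 in T, B and plasma-like cells. Anxa1 in T cells was then at 58.2 CPM (WT) and 40.3 CPM (APP/PS1). Anxa2 was at 181 and 174 CPM in T cells, 91.2 and 119.6 CPM in B cells and 114 and 244 CPM in plasma-like cells. Of the main results, 102 values under alternatives stayed within counting error (for counts of genes, within 1.5 times) and 26 did not. Of the single values by cell type, 787 stayed within it and 340 did not, and the cause was not tested. The log2 ratio of Anxa1 in immature over other neutrophils, 2.23 in WT and 1.86 in APP/PS1, came to 2.14 and 1.81 with no percentile limits, 1.996 and 1.79 with a 5% mitochondrial limit, 2.36 and 1.96 at a resolution of 0.6, 1.56 and 1.26 with cells assigned singly by markers, and 2.54 and 2.20 with library sizes that leave out S100a8, S100a9, ribosomal, mitochondrial and haemoglobin genes. In WT it was 2.08 without cells holding a lymphocyte marker UMI and 2.35 without cells holding a platelet marker UMI. That of Anxa3, 4.25 and 4.54, came to 3.65 and 3.96 with cells assigned singly, and to 4.87 in APP/PS1 with the reduced library sizes. In neutrophils the genotype ratio of Anxa1 was 0.057 with TMM and 0.050 with the reduced library sizes. That of Anxa2 was 0.01, and came to -0.028 with TMM and -0.035 with the reduced library sizes. The Anxa6 ratio was 0.73 without platelet marker UMIs, an alternative chosen after seeing the data. Genes past the fold numbered 1046 in neutrophils and 784 in classical monocytes with a minimum of 50 UMIs, and 53 and 31 with a fold of 1 log2, at which 0 partner genes passed in either. In classical monocytes the Anxa11 ratio was -0.11 with called doublets removed.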

Other observations

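At a resolution of 0.6 a further cluster with dendritic cell markers separated, with 246 cells in WT and 188 in APP/PS1. It held 397 CPM of Anxa5 in WT (371 to 425) and 344 CPM in APP/PS1 (315 to 375), near the 378 and 371 CPM of classical monocytes. Anxa1 was at 373 and 331 CPM and Anxa2 at 513 and 508 CPM in these dendritic-like cells, while Anxa6 was at 122 and 133 CPM. Anxa3 was at 22.5 CPM (WT) and 32.8 CPM (APP/PS1), below classical monocytes in both libraries.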
